A study of Mus musculus with 6 samples.

Results

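A set of 7 transcription factors of the hair cell lineage, Atoh1, Pou4f3, Gfi1, Lhx3, Barhl1, Insm1 and Ikzf2, were followed in cochlear sensory epithelia (CSE) of adult and P3 mice. The probe sets were taken as every probe set that the array annotation assigns to one of these 7 genes alone. This gave 12 probe sets of the 45101 on the array, with 3 for Ikzf2, 2 each for Lhx3, Barhl1 and Insm1, and 1 each for Atoh1, Pou4f3 and Gfi1. The array names 18194 genes through probe sets of a single gene.

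The adult group was 3 arrays of CSE from Swiss Webster mice (Swiss in the labels) aged 8 weeks, and the P3 group was 3 arrays of CSE from Swiss Webster mice of postnatal day 3. Each array measured total RNA of 1 pool of 40 epithelia from 20 mice, dissected independently of the other pools, so single animals could not be compared. The labels name no transgene and no treatment. The capsule, modiolus, spiral ligament and stria vascularis were dissected away, and the P3 epithelium still held the greater and lesser epithelial ridges that surround the organ of Corti. Hair cells are a small part of this tissue, and in such bulk RNA fewer cells of a type and less RNA per cell cannot be told apart.

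Hair cells, the mechanosensory receptors of the cochlea, are specified by Atoh1, a basic helix-loop-helix activator that is switched on in the prosensory domain before birth and declines as the cells mature. Pou4f3, Gfi1, Barhl1 and Lhx3 act after it in the survival and differentiation of the cells, while Insm1 and Ikzf2 act in outer hair cells, the amplifying type, early and late in their development. Transcription factors are made from few transcripts, and several of these genes are also used in other organs. In the cerebellum Atoh1 is used in granule cell precursors and Barhl1 in granule neurons. Gfi1 is used in granulocytes, Lhx3 and Insm1 in the pituitary and Ikzf2 in T lymphocytes.

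No probe set of the 7 factors was called between the stages. Signals are MAS5.0 intensities on a linear scale, and each array was given a background level, the 90th percentile of its signals for 83 chemosensory receptor probe sets. The test, limma, was run on probe sets that exceeded background on 3 or more arrays. A call needed a fold of 2 or more together with an adjusted p (Benjamini-Hochberg) below 0.05. Of the 12 probe sets 7 were tested, which covered all the factors except Insm1, and 0 of the 7 were called. Over the whole array 2109 of 29036 tested probe sets were called, or 7.26%, with 3.87% called lower and 3.39% called higher in adult CSE. At an unadjusted p under 0.05 stood 2 of the 7, Atoh1 and 1 probe set of Ikzf2, against 23.7% of all tested probe sets. The arrays of the stages did not overlap in signal for 3 of the 7 (Atoh1, Lhx3 and Ikzf2), against 31.1% of all tested probe sets. With 3 arrays a stage, the smallest two-sided p of an exact permutation test is 0.1. Of the 7 log2 fold changes 6 were negative, with a median of −0.42 against 0.04 over all tested probe sets, a description only because a probe set could enter the test through its brighter stage.

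Most of the 12 probe sets lay near background, with 1437542_at of Ikzf2 well above it. On all 6 arrays only 3 of them were above it (Gfi1, 1 of Barhl1 and 1 of Ikzf2), and 2 (1 of Lhx3 and 1 of Ikzf2) were above it on none. The background level was 16.3, 9.05 and 8.71 on adult replicates 1, 2 and 3, and 34.5, 9.16 and 6.29 on P3 replicates 1, 2 and 3. P3 replicate 1 stood apart in other measures too. Its ratio of 3′ to 5′ Gapdh signal, a measure of RNA integrity, was 82.0, against 0.707 to 2.07 on the other 5 arrays, and 47.4% of its probe sets were above background, against 58.6% to 68.1%. The fold changes of the 7 factors and of the called genes of the 4 lists below were therefore also computed without that array.

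**Figure D1:**
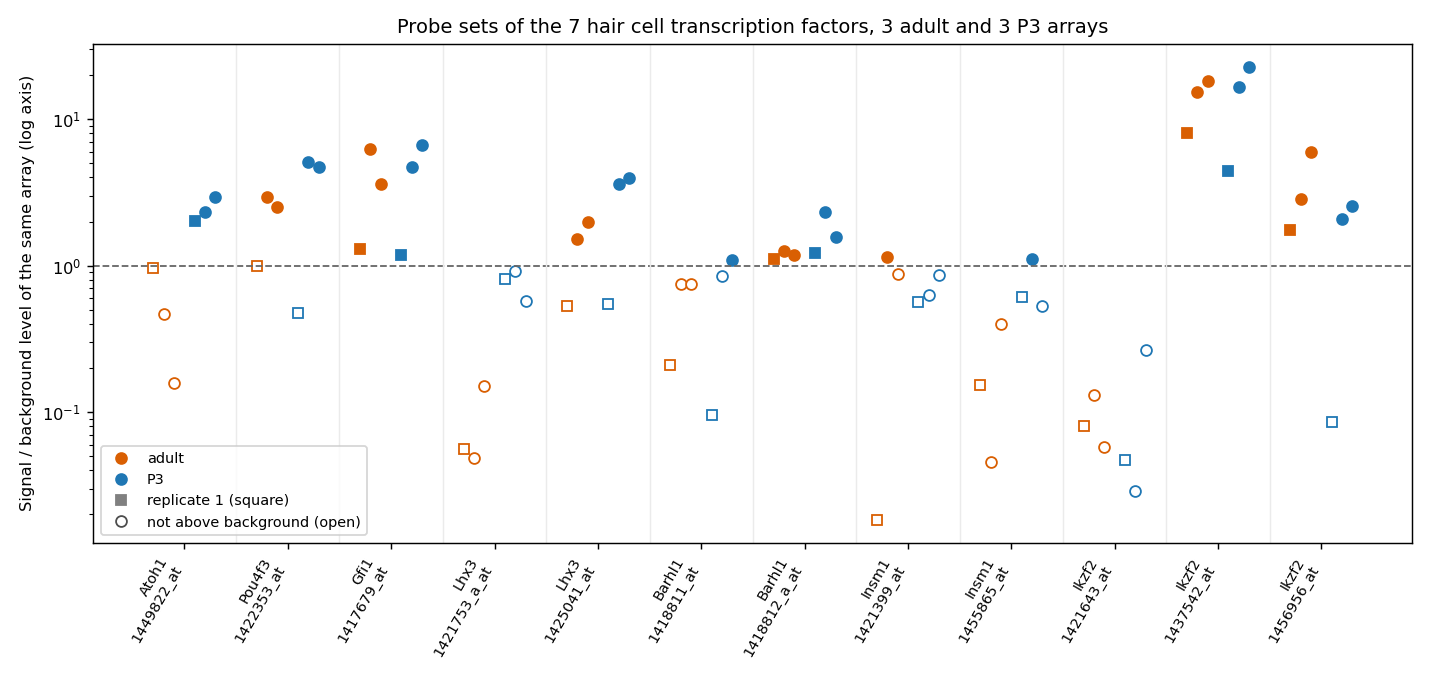
Signal of each of the 12 probe sets divided by the background level of its own array (log axis), for 3 adult arrays (orange) and 3 P3 arrays (blue), with squares for replicate 1 and open symbols at or below background, the dashed line. Atoh1 lies above the line on the 3 P3 arrays and on no adult array, while Ikzf2 1437542_at lies 4.42 to 22.8 times above it on all 6.

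Atoh1 opens the hair cell programme. It lies on chromosome 6 at 64729125-64731245 of GRCm38.p6 and has 1 probe set, 1449822_at. Its signal was 15.8, 4.25 and 1.38 on the adult arrays and 69.4, 21.4 and 18.4 on the P3 arrays. All 3 adult arrays were lower than all 3 P3 arrays. Set against each array's own background, the signal was 0.970, 0.470 and 0.159 times that level in adult CSE and 2.01, 2.34 and 2.93 times in P3 CSE, so that none of the adult arrays and every P3 array was above background. The mean was 7.14 ± 7.62 in adult CSE and 36.4 ± 28.6 in P3 CSE (SD, n = 3 each). The log2 fold change, adult minus P3, was −2.73 (SE 1.00, 95% confidence interval −5.01 to −0.46), with an adjusted p of 0.140 by limma, which is not a call. With signals raised to background the log2 fold change was −1.47 (SE 0.65, limma adjusted p = 0.209), an estimate of 2.77-fold. That estimate was 1.83-fold without P3 replicate 1, whose Atoh1 signal was the highest. Atoh1 entered the test only through the P3 arrays, the stage in which it was high. Without P3 replicate 1 the log2 fold change was −2.13 (adjusted p = 0.225), and without adult replicate 3, whose signal was lowest, −1.88 (adjusted p = 0.375).

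Atoh1 was called in 2 other settings. With limma's array weights, which weighted P3 replicate 1 least (0.155) and adult replicate 3 most, the log2 fold change was −3.52 (adjusted p = 0.00108), and 7593 probe sets of the array were called. SAM, the test named in the study's methods, was rerun here with 20 relabellings and without the methods' filter on detection calls. The study itself, using that filter, lists this Atoh1 probe set among its selected genes higher at P3. The methods do not say whether signals were logged. With SAM on log2 signals the false discovery rate of Atoh1 was 0.0383, and it was 0.209 with SAM on signals that were not logged.

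The sequence before the Atoh1 start site is shown because it is a control region of the gene at the head of this programme, and because Hes and Hey proteins, the repressors that Notch signalling induces against Atoh1, bind sites of the form CACGNG. From RefSeq (GRCm38.p6), these are the 250 bases upstream of the start on the plus strand, chr6:64728875-64729124, with matches to CACGNG on either strand in capitals:

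Atoh1 upstream: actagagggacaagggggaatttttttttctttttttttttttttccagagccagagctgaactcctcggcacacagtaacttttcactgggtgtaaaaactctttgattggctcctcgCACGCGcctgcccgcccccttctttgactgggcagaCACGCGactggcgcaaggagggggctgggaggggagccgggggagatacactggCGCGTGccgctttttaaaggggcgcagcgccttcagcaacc

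There are 3 matches that do not overlap, beginning 131, 95 and 41 bases before the start. The motif was chosen with the sequence in view. Of 32851 upstream windows of the same length 23.5% held at least 1 match and 1.11% held 3 or more, and the 6 windows of Lhx3, Barhl1 and Gfi1 held 0. The general E-box CANNTG, the kind of site that Atoh1 itself binds, was absent from the Atoh1 window and present in 5 of the 7 windows of the 4 factors, against 66.2% of all windows. A match is only a string of letters, and binding was not measured here.

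Pou4f3, a POU-domain factor that hair cells need to survive, was measured by 1422353_at. Its signal was 16.3, 26.8 and 21.9 on the adult arrays and 16.5, 46.8 and 29.5 on the P3 arrays. The stages overlapped, and in each the array of replicate 1 was lowest and not above background while the other 2 were above it. The mean was 21.6 ± 5.26 in adult CSE and 31.0 ± 15.2 in P3 CSE (SD, n = 3 each), and the log2 fold change was −0.42 (SE 0.53, 95% confidence interval −1.62 to 0.78, adjusted p = 0.677). Without P3 replicate 1 the log2 fold change was −0.81, and without P3 replicate 2, the brightest array, it was −0.06.

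Gfi1, a zinc finger repressor that keeps neuronal genes off in hair cells, lies on chromosome 5 at 107716655-107725805 and was above background on all 6 arrays. The signal of 1417679_at was 21.1, 56.7 and 31.6 on the adult arrays and 40.7, 43.4 and 41.7 on the P3 arrays. The P3 arrays lay close together, inside the range of the adult ones. The mean was 36.5 ± 18.3 in adult CSE and 41.9 ± 1.35 in P3 CSE (SD, n = 3 each), and the log2 fold change was −0.32 (SE 0.44, 95% confidence interval −1.33 to 0.69, adjusted p = 0.708). Without P3 replicate 1 it was −0.34. Without adult replicate 1 it was 0.01, so that its sign rested on that adult array.

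Gfi1 is also a factor of granulocyte precursors, whose marker genes were higher in adult CSE. Of 13 such genes 10 were called higher in adult CSE and 0 lower, and their summed signal was 8536, 18409 and 4061 on the adult arrays and 490, 140 and 198 on the P3 arrays. The defining genes Elane, the neutrophil elastase, and Mpo, the myeloperoxidase, were both called higher, with log2 fold changes of 4.80 (adjusted p = 0.00395) and 4.70 (adjusted p = 0.00273). Prtn3, proteinase 3, was not called (2.04, adjusted p = 0.119). The adult array with the highest granulocyte sum, replicate 2, was also the one with the highest Gfi1 signal. The part of these cells in the Gfi1 values was not tested.

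Barhl1, a homeobox factor that hair cells need for their long-term maintenance, lies on chromosome 2 at 28907680-28917984. The signal of 1418812_a_at was 18.1, 11.5 and 10.3 on the adult arrays and 42.3, 21.2 and 9.88 on the P3 arrays. The stages overlapped, because P3 replicate 3 was the lowest of all 6 arrays. Every array was above its background, but barely in adult CSE, at 1.11, 1.27 and 1.18 times that level, and at 1.23, 2.31 and 1.57 times in P3 CSE. The mean was 13.3 ± 4.22 in adult CSE and 24.5 ± 16.5 in P3 CSE (SD, n = 3 each), and the log2 fold change was −0.68 (SE 0.67, 95% confidence interval −2.21 to 0.85, adjusted p = 0.586). Without P3 replicate 1 it was −0.17. The other probe set, 1418811_at, was not tested, at 3.40, 6.82 and 6.52 on the adult arrays and 3.32, 7.78 and 6.90 on the P3 arrays. Only P3 replicate 3 was above background there.

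In the cerebellum Barhl1 also marks granule neurons, and Atoh1 their precursors. Of 11 granule cell genes on the array 7 were tested and 0 called, and the summed signal of all 11 was 3770, 1149 and 1208 on the adult arrays and 574, 606 and 686 on the P3 arrays. Adult replicate 1 was the highest of the 6. Gabra6, a GABA receptor subunit specific to these neurons, had 672, 8.50 and 17.3 on the adult arrays and 4.37, 6.69 and 3.55 on the P3 arrays, so that a single array carried it. Cbln1 and Cbln3, their secreted synaptic organizers, were highest on the same array, at 375 and 256. Adult replicate 1 was also the highest adult array for 1418812_a_at of Barhl1, but the lowest for 1418811_at of Barhl1. Measured against its own background 1418812_a_at was lowest there too. Atoh1 was highest among the adult arrays on adult replicate 1 as well, but not above background, at 0.970 times that level. Without adult replicate 1 the log2 fold change of Atoh1 was −3.64 (adjusted p = 0.0764). The part of cerebellar cells in the Atoh1 and Barhl1 values was not tested.

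Lhx3, a LIM-homeodomain factor of hair cells, motor neurons and the pituitary, lies on chromosome 2 at 26200212-26208249. The signal of 1425041_at was 8.57, 13.7 and 17.2 on the adult arrays and 18.7, 32.8 and 24.8 on the P3 arrays. The stages did not overlap in signal, although the gap between adult replicate 3 and P3 replicate 1 was small. Neither array of replicate 1 was above background. Set against each array's own background, the stages overlapped, at 0.527, 1.52 and 1.98 times in adult CSE and 0.543, 3.58 and 3.94 times in P3 CSE. The mean was 13.2 ± 4.37 in adult CSE and 25.5 ± 7.06 in P3 CSE (SD, n = 3 each), and the log2 fold change was −0.97 (SE 0.54, 95% confidence interval −2.21 to 0.27, adjusted p = 0.326). Without P3 replicate 1 the log2 fold change was −1.17 (adjusted p = 0.159). The second probe set, 1421753_a_at, read 0.904, 0.439 and 1.31 on the adult arrays and 28.1, 8.41 and 3.62 on the P3 arrays. In signal the stages did not overlap there either, but no array was above background, so 1421753_a_at was not tested and no fold is given.

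Pituitary genes, which Lhx3 activates in that gland, were higher in adult CSE. Of 10 such genes on the array 3 were tested and 2 were called higher in adult CSE, prolactin (Prl) and growth hormone (Gh), and 0 lower. The summed signal of the 10 was 3516, 3277 and 302 on the adult arrays and 184, 67.7 and 57.3 on the P3 arrays. The third gene, Pomc, the corticotropin precursor, was not called (log2 fold change 0.91, adjusted p = 0.222), and 5 of the 10 genes were above background on no adult array. The part of pituitary RNA in the Lhx3 values was not tested, and on the adult array with the highest pituitary sum, replicate 1, Lhx3 1425041_at was at its lowest while 1421753_a_at was lowest on adult replicate 2.

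Insm1, a zinc finger repressor that holds early outer hair cells to their fate, lies on chromosome 2 at 146221997-146225020 and could not be tested. The signal of 1421399_at was 0.299, 10.3 and 7.60 on the adult arrays and 19.6, 5.74 and 5.46 on the P3 arrays. The stages overlapped, and adult replicate 2 alone was above background. The signal of 1455865_at was 2.50, 0.412 and 3.50 on the adult arrays and 21.2, 10.1 and 3.32 on the P3 arrays. Here P3 replicate 2 alone was above background, and P3 replicate 3 lay among the adult arrays. Whether Insm1 differed was not detectable at these signals.

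Ikzf2, or Helios, a zinc finger factor of maturing outer hair cells, lies on chromosome 1 at 69531207-69687351 and was the factor measured farthest above background. The signal of 1437542_at was 131, 138 and 158 on the adult arrays and 153, 152 and 144 on the P3 arrays. All 6 arrays lay within a narrow range and the stages overlapped. The mean was 142 ± 14.1 in adult CSE and 149 ± 5.01 in P3 CSE (SD, n = 3 each). The log2 fold change was −0.07 (SE 0.22, adjusted p = 0.876), and −0.06 without P3 replicate 1. With all 6 arrays its 95% confidence interval of −0.57 to 0.43 was the narrowest among the 7 tested probe sets and held no change of 2-fold.

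A second probe set of Ikzf2 gave another picture. The signal of 1456956_at was 28.6, 25.7 and 52.2 on the adult arrays and 2.93, 19.1 and 16.1 on the P3 arrays. All adult arrays were higher than all P3 arrays in signal, and all except P3 replicate 1 were above background. Set against each array's own background, the stages overlapped. The signal was 1.8, 2.8 and 6.0 times that level in adult CSE and 0.08, 2.1 and 2.6 times in P3 CSE. The mean was 35.5 ± 14.5 in adult CSE and 12.7 ± 8.62 in P3 CSE (SD, n = 3 each), and the log2 fold change was 1.80 (SE 0.79, adjusted p = 0.210), which is not a call. Without P3 replicate 1 it was 0.94 (adjusted p = 0.195), and with signals raised to background it was 0.62. Array weights made it a call (1.47, adjusted p = 0.0111). The third probe set, 1421643_at, was above background on no array, at 1.31, 1.19 and 0.505 on the adult arrays and 1.63, 0.264 and 1.66 on the P3 arrays. The annotation does not say which transcripts of the gene each probe set reads.

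T lymphocytes, which also use Ikzf2, gave little signal. Of 11 of their genes on the array 4 were tested and 0 called, and the summed signal of all 11 was 73.6, 97.5 and 108 on the adult arrays and 149, 62.6 and 56.7 on the P3 arrays. Of the T cell receptor complex, Cd3e was above background on no array, Cd3d on 2 adult arrays and Cd3g on P3 replicate 1 alone. The array with the highest sum, P3 replicate 1, was also the one with the highest background level, 34.5, so these sums do not rank the arrays by T lymphocytes. The part of these cells in the Ikzf2 values was not tested.

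**Figure D2:**
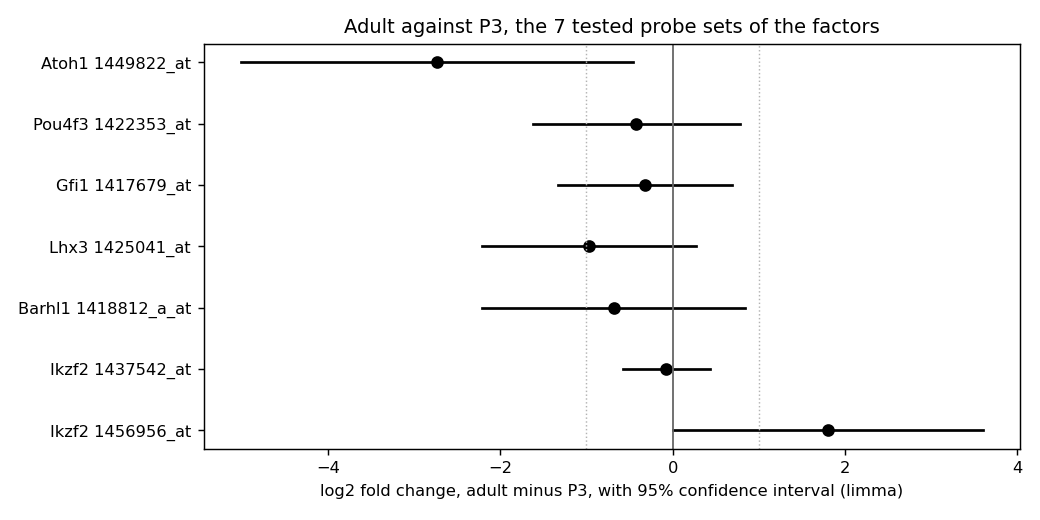
Log2 fold change, adult minus P3, of the 7 tested probe sets with limma's 95% confidence interval; dotted lines mark a change of 2-fold. Of the 7 intervals 5 include no change, those of Atoh1 (−5.01 to −0.46) and Ikzf2 1456956_at do not, and none of the 7 adjusted p-values passed the threshold.

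**Figure D3:**
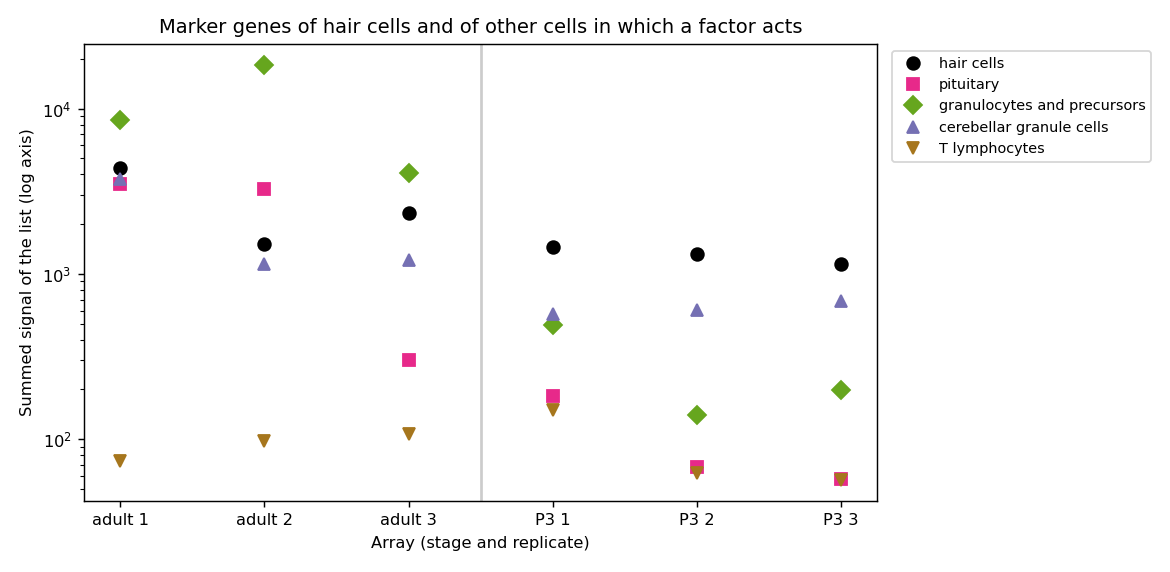
Summed signal (log axis) of marker genes of hair cells and of 4 other cell types that use one of the factors, on each adult and P3 array. The sums of granulocyte, pituitary, cerebellar granule cell and hair cell genes are higher on every adult array than on every P3 array. Those of T lymphocytes overlap. Hair cell genes sum to 1512 to 4384 in adult CSE and 1152 to 1447 in P3 CSE, and most of these sums is Pvalb, which neurons share.

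Hair cells themselves were represented at both stages. Of 10 marker genes 8 were on the array and 6 were tested, with 0 called. The summed signal of the 8 was 4384, 1512 and 2348 on the adult arrays and 1447, 1324 and 1152 on the P3 arrays, without overlap. Pvalb, a calcium buffer that neurons share, made up most of these sums, at 4035, 926 and 1745 on the adult arrays and 1057, 707 and 659 on the P3 arrays. Myo7a, the hair cell myosin, was above background on every array, at 53.6, 52.9 and 59.9 in adult CSE and 76.3, 57.1 and 50.4 in P3 CSE. Its log2 fold change was −0.12 (SE 0.31, adjusted p = 0.850). Otof, otoferlin of the inner hair cell synapse, was lower on every adult array than on every P3 array, but uncalled (−0.57, SE 0.28, adjusted p = 0.259). Slc26a5, prestin, the motor of outer hair cells, was above background on no array.

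The genes that hair cells use once these factors have acted divided evenly in sign. The list held 39 genes, of which 28 were on the array and 24 were tested. Of the 24 effector genes tested 3 were called higher in adult CSE and 0 lower, against 3.39% and 3.87% of all tested probe sets. The median log2 fold change was −0.00 against 0.04 for all tested probe sets. The largest change was downward and uncalled, that of Calb1 (−2.91, adjusted p = 0.0805), which is named after its value was seen. The 3 called genes were Calb2 (calretinin), Dnm3 (dynamin 3) and Fbxo2. Calb2 is also a protein of spiral ganglion neurons, Dnm3 of synapses at large, and Fbxo2 is abundant in supporting cells. Calb2 had 4366, 1542 and 2926 on the adult arrays and 203, 522 and 775 on the P3 arrays (log2 fold change 2.64, adjusted p = 0.0225). Dnm3 rose by 2.00 (adjusted p = 0.0149) and Fbxo2 by 1.73 (adjusted p = 0.0335) on that scale. Leaving out single arrays ended each of these calls at least once, for Calb2 adult replicate 1 or 3, for Dnm3 adult replicate 3 or P3 replicate 3, and for Fbxo2 any adult array or P3 replicate 3.

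A list on the restraint of Atoh1 held 20 genes, of the Notch pathway, Id proteins, Sox2 and Prox1. Not all of them restrain Atoh1, since Nrarp inhibits Notch. Of the 20 genes 4 were called lower in adult CSE and 0 higher, against 3.87% and 3.39% of all tested probe sets. Over the 20 genes the median log2 fold change was −0.49, against 0.04 over all tested probe sets. Sox2, the prosensory factor that both primes and restrains Atoh1, had 315, 149 and 199 on the adult arrays and 1396, 1317 and 888 on the P3 arrays, a log2 difference of −2.48 (SE 0.32, adjusted p = 0.00401). Jag1, the Notch ligand of supporting cells, was lower by a log2 difference of −2.15 (SE 0.30, adjusted p = 0.00541). Hey1, a Notch-induced repressor of the Hes and Hey class, fell by 1.93 (SE 0.32, adjusted p = 0.0103) and Nrarp, a feedback inhibitor of Notch, by 1.91 (SE 0.33, adjusted p = 0.0131). The call of Hey1 was lost without adult replicate 3 (adjusted p = 0.0608), and that of Nrarp without adult replicate 3, P3 replicate 2 or P3 replicate 3. Hes5, another Notch-induced repressor of the organ of Corti, was not called, with 19.8, 1.11 and 0.450 on the adult arrays and 54.8, 45.1 and 23.5 on the P3 arrays and an adjusted p of 0.0988. Like Atoh1, it was above background on every P3 array, and on a single adult array.

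Of 23 factors upstream of or beside the 7, 5 were called lower and 1 higher in adult CSE. Over all tested probe sets these shares were 3.87% and 3.39%. The median log2 fold change of the 23 was −0.70, against 0.04 over all tested probe sets. Sox4 and Sox11, which act before Atoh1 in the sensory epithelium, fell by 2.21 (adjusted p = 0.00205) and 1.94 (adjusted p = 0.0140) on the log2 scale. Tcf3, an E protein that pairs with Atoh1 to bind DNA, fell by 1.55 (SE 0.24, adjusted p = 0.00866). The other E proteins were not called, Tcf12 at −0.70 (adjusted p = 0.0854) and Tcf4 at −0.02 (adjusted p = 0.981). Rfx3, a ciliary factor of hair cells, and Lmo1, a LIM-only protein, fell by 1.40 (adjusted p = 0.0479) and 1.33 (adjusted p = 0.0478), and Zbtb18, a zinc finger repressor, rose by 1.15 (adjusted p = 0.0312). Those last 3 calls were fragile: leaving out any single array ended those of Rfx3 and Zbtb18, and leaving out any array except P3 replicate 1 ended that of Lmo1. Sox11 was lost without P3 replicate 3. Kdm1a, the histone demethylase through which Gfi1 and Insm1 repress, passed the adjusted p (0.0375) but not the fold (−0.85). Tcf12, Tcf4 and Kdm1a are named after their values were seen.

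Most of the closest relatives of the 7 factors lay below the filter. Of 17 paralogues on the array 7 were tested and 0 called, against 7.26% of all tested probe sets. The median log2 fold change of the 7 was 0.58, against 0.04 over all tested probe sets. Of the 17, 8 were above background on no adult array and 7 on no P3 array. Ikzf1, or Ikaros, a blood cell factor, had 23.0, 56.9 and 35.2 on the adult arrays and 25.4, 7.93 and 8.61 on the P3 arrays. Its log2 fold change of 1.58 was not a call (adjusted p = 0.176).

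**Figure D4:**
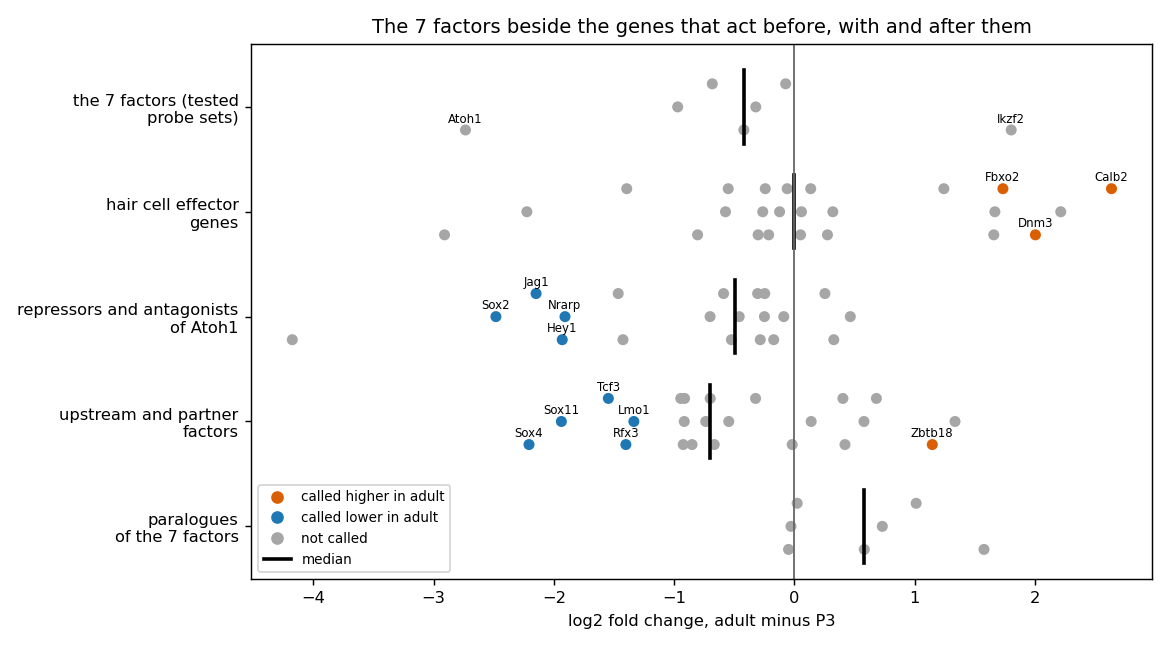
Log2 fold change, adult minus P3, of the 7 tested probe sets of the factors and of the tested genes of 4 lists, with called genes coloured and named and the list's median as a bar. Of the factors 0 are called, against 3 of 24 effector genes and 4 of 20 genes of the Atoh1 restraint list. Of upstream and partner factors 6 of 23 are called, and of paralogues 0 of 7. Over all tested probe sets 7.26% are called.

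Likeness of pattern was measured for the brightest tested probe set of each factor, as the root mean square difference of mean-centred log2 signals over the 6 arrays, against the tested probe sets of all other single genes (24762, or 24761 for Ikzf2). For Atoh1 the nearest genes were Slc6a11 (0.299), Pcdh8 (0.332) and Dnah1 (0.360), for Lhx3 they were Arl14ep (0.113), Robo1 (0.148) and Pdia4 (0.153), and for Barhl1 Upk2 (0.124), Wdr66 (0.128) and Ly6g6c (0.153). Pou4f3 was nearest to Dffb (0.0977), Ppp2r2b (0.104) and Zfp24 (0.124), and Gfi1 to Akip1 (0.0657), Ipp (0.0938) and Gins4 (0.0964). Ikzf2 1437542_at, whose signal hardly varied, was nearest to Cpsf7 (0.0337), Zfp637 (0.0389) and Dph5 (0.0488). The 3 genes nearest to Atoh1 had, like it, a signal that was highest on replicate 1 of each stage. These distances describe 6 arrays and share their differences in background. None of the nearest genes was another of the 7 factors.

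**Figure D5:**
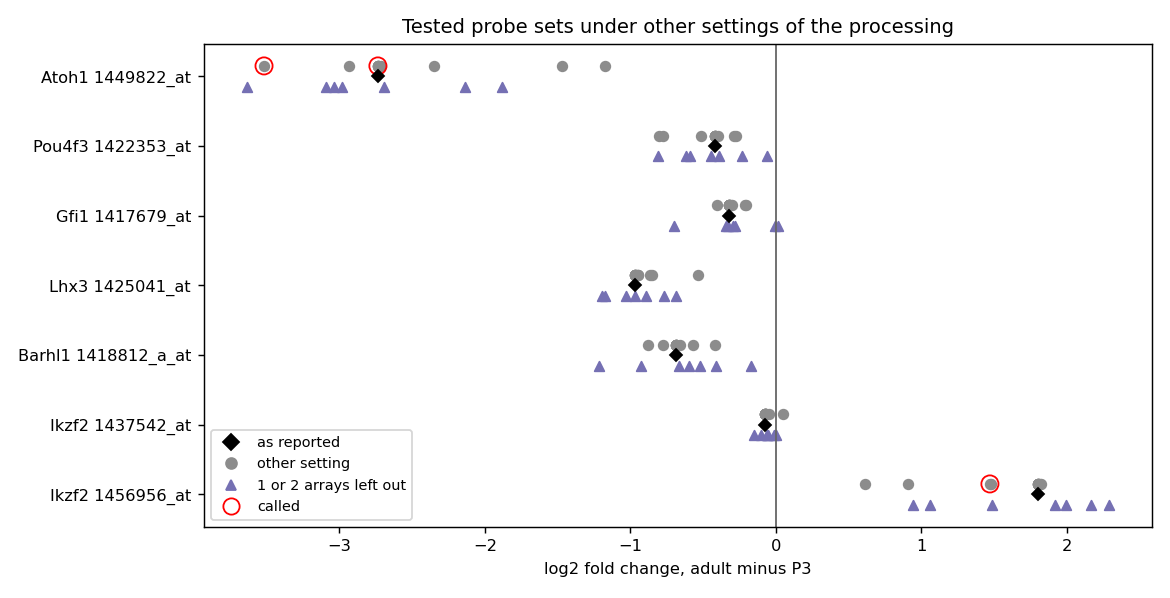
Log2 fold change, adult minus P3, of the 7 tested probe sets as reported (diamonds), under other settings (circles) and with 1 or 2 arrays left out (triangles), with red rings where a setting gave a call. Atoh1 ranges over −3.64 to −1.17 and was called in 2 settings, and Ikzf2 1456956_at over 0.62 to 2.29 and was called in 1.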

How the data were processed

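Total RNA of 6 CSE pools was amplified and hybridized to Affymetrix Mouse Genome arrays, from 100 ng according to the labels and another amount according to the methods. The deposited values are MAS5.0 signal intensities, which the authors computed with GCOS (version 1.2 in the submitters' processing notes, another in the methods) and scaled to a trimmed mean of 100. They were used as deposited, on the log2 scale. Detection calls were left aside. All 6 columns were matched by label, and 0 were left unmatched.

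Of 45101 probe sets 64 were controls, and 34945 named 1 gene, 932 several and 9160 none. Probe sets above background on at least 3 arrays (29036) were tested by the limma package, version 3.58.1, run under R 4.3.3, with stage as its only term and a variance trend on intensity in eBayes, after the procedure was tested on simulated data. SE is limma's moderated standard error. The number of arrays limits the precision, and the pools were independent dissections. A list gene was represented by its brightest tested probe set. All probe sets of the 7 factors are reported, and from each list up to 6 called genes in each direction, the defining markers and the 3 nearest patterns per factor. Of 103 entries in the 4 companion lists 89 matched the annotation, and 8 marker lists were used. The factors and lists were chosen with earlier results of these data known.

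Alternatives were other signal filters, an equal median on every array, quantile normalization, signals raised to background or with the mean background added, no trend, array weights, the replicate number as a block, SAM with 20 relabellings, the mean over a gene's probe sets and each array left out. Leaving out both replicate 1 arrays, and the Atoh1 fold over raised adult signals without each P3 array, were added after the data were seen. RefSeq upstream windows were counted for 4 of the 7 factors, Atoh1, Gfi1, Lhx3 and Barhl1. None was found for Insm1 and Ikzf2, and the window and position of Pou4f3 were left out and are not reported here.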

Additional observations from a re-analysis of the deposited data

How the results depend on the processing

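No probe set of the factors was called in any setting except with array weights, which called 2 (Atoh1 and Ikzf2 1456956_at), and SAM on log2 signals, which called 1 (Atoh1). The calls over all probe sets, 2109, became 562 with arrays scaled to the same median, 899 without the intensity trend, 7593 with array weights, 3527 without both replicate 1 arrays and 576 to 2839 with 1 array left out. Effector genes called, 3, became 1 with the same median, 0 without the trend, 8 with array weights, 5 with SAM on log2 signals, 1 with SAM on signals not logged and 0 to 3 with 1 array left out. Genes of the Atoh1 restraint list, 4, became 1 with the same median, 7 with array weights and 2 to 5 with 1 array left out. Upstream and partner factors, 6, became 1 with the same median, 2 without the trend, 10 with array weights and 2 to 6 with 1 array left out. Paralogues, 0, became 1 with array weights, 1 without both replicate 1 arrays and 0 to 1 with 1 array left out. Gfi1 turned to 0.014 without adult replicate 1 (−0.70 to 0.014 with 1 array left out), and Ikzf2 1437542_at to 0.052 with array weights and 0.0020 without both replicate 1 arrays (−0.15 to 0.0020 with 1 or 2 arrays left out). The cause was not tested for any of these. With above background on at least 4 arrays Atoh1 was not tested. Same-numbered arrays of the 2 stages had deviations correlated at 0.182, 0.213 and 0.0762, and each array correlated best with its own number, but the labels give the number no shared origin. With the replicate block 2649 probe sets were called, 0 of them of the factors (Atoh1 adjusted p = 0.0577). Called in that setting were 4 effector genes, 4 of the Atoh1 restraint list, 5 upstream and partner factors and 0 paralogues.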

Other observations

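Genes of the cells around hair cells were called in both directions. Of 12 supporting cell genes 2 were called higher in adult CSE and 3 lower. Of the 2 called higher, Gfap had 274, 9.52 and 16.2 on the adult arrays and was above background on no P3 array. Its signal lay mostly on adult replicate 1 and was 1.05 times background on adult replicate 2 (log2 fold change 5.42, limma adjusted p = 0.0464). Gjb6, connexin 30 of the gap junctions between supporting cells, had 2472, 4563 and 4373 on the adult arrays and 610, 943 and 898 on the P3 arrays (log2 fold change 2.19, limma adjusted p = 0.00664). Tectb, a tectorial membrane protein, had 40.1, 253 and 60.6 on the adult arrays and 10637, 6326 and 4136 on the P3 arrays (−6.26, adjusted p = 0.00169). The summed signal of the list overlapped, at 9578, 10794 and 13215 in adult CSE and 17785, 12754 and 10406 in P3 CSE.

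Of 12 neuronal genes 3 were called higher in adult CSE and 1 lower. Their summed signal was 25381, 8855 and 13707 on the adult arrays and 5534, 5056 and 6002 on the P3 arrays. Scn8a, a sodium channel of axons, was among the higher genes (log2 fold change 3.33, adjusted p = 0.00595), and Gap43, a protein of growing axons, was the lower one (−3.38, adjusted p = 0.0114). Of 6 genes of neuroendocrine cells, a type that uses Insm1, 5 were tested and 1 was called, Scg2, a secretory granule protein (−4.58, adjusted p = 0.00842). The other 4 were not called and went the other way, with positive log2 fold changes, and the median of the 5 was 1.16. The sum of the 6 was 3720, 864 and 1579 in adult CSE and 1536, 1180 and 1244 in P3 CSE.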
